A study of Mus musculus with 9 samples.

Results

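The phagocyte NADPH oxidase genes examined here were Cybb, Cyba, Ncf1, Ncf4, and Rac2, chosen by name as subunits of the enzyme. All 5 were found among the 24341 gene names of the deposited table, and all 5 passed the filter on low values. They were measured in bulk liver of wild-type C57BL/6 mice at 48 hours after treatment, in 3 mice given the agonist CD40 antibody FGK45 (mice 2, 5, and 9) and in 6 mice given PBS (mice 3, 4, 7, 8, 11, and 12). The mice carried no transgene by their labels. The labels give neither age nor sex, and the methods describe sex-matched adult mice in general. The methods also state that mice without the drop in blood B cells that normally follows anti-CD40 were excluded, and the study describes the sequencing as a single experiment.

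The phagocyte oxidase is the enzyme with which neutrophils, monocytes, and macrophages make superoxide during the respiratory burst. Its catalytic core lies in the membrane and is a heterodimer of gp91phox, encoded by Cybb, and p22phox, encoded by Cyba. In resting cells the organizer p47phox (Ncf1) and p40phox (Ncf4) are held in the cytosol, and on stimulation they move to the membrane together with a Rac GTPase, which is Rac2 in neutrophils. Loss of this activity causes chronic granulomatous disease. In the liver the enzyme is known from Kupffer cells, the resident macrophages, and from leukocytes that enter the tissue.

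The genes lie on 4 chromosomes of mm10. The deposited table places Cybb on chromosome X from 9435254 to 9469324, Cyba on chromosome 8 from 122424771 to 122432940, and Ncf1 on chromosome 5 from 134220053 to 134229625. Ncf4 and Rac2 are both on chromosome 15, from 78244811 to 78262580 and from 78559169 to 78572783. No other gene name of the table shares the position of any of the 5. RefSeq sequences of the region before the transcription start (GRCm38.p6, the build behind mm10) were at hand for 3 of the 5 genes, Cybb, Cyba, and Ncf1. They are shown because these genes all rose after anti-CD40 and because Cybb is a textbook target of interferon regulatory factors. Each line gives the 250 bases before the start, 5′ to 3′ on the strand of the gene, and capitals mark a match on either strand to GAAANNGAA, the core of an interferon response element.
Cybb, chrX:9469325-9469574, minus strand: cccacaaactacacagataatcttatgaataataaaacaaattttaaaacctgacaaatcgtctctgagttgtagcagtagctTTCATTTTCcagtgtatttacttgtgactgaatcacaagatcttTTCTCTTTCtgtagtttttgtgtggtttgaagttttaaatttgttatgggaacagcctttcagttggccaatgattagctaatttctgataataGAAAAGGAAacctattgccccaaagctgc
Cyba, chr8:122432941-122433190, minus strand: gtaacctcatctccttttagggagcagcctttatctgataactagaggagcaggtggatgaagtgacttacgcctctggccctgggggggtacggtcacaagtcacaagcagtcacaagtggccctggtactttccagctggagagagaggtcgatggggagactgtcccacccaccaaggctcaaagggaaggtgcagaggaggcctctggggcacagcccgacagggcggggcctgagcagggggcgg
Ncf1, chr5:134229626-134229875, minus strand: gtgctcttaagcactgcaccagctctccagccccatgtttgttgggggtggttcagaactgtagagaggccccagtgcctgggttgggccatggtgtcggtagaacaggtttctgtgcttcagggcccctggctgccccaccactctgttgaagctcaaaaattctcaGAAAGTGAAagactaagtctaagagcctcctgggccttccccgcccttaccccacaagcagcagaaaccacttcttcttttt
The Cybb region held 3 matches to GAAANNGAA, 1 on the strand of the gene from 29 to 21 bases before the start and 2 on the other strand, and the Ncf1 region held 1, from 82 to 74 bases before the start. Of the 32851 RefSeq promoter regions of the same length, 7.13% held this motif. The Cyba region held none. None of the 3 regions held GAGGAA, a core bound by PU.1 (in 23.3% of all regions), or GGAANNGAA, the spacing of a composite site of PU.1 with an interferon regulatory factor (in 6.99% of all regions). A match here describes letters and not binding, and the lack of a match says only that these letters are not in this window.

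All 5 subunit genes rose in the liver after anti-CD40, between 5.97-fold and 10.5-fold by the fit on log2(FPKM + 0.1). In each of them every anti-CD40 mouse was above every control mouse. The order of the 5 estimates depended on the pseudocount and the scaling. Ncf4 had the largest value and Cybb the smallest with 0.1, but with a pseudocount of 1 Cyba (2.58), Ncf4 (2.58), and Ncf1 (2.56) lay close together and Rac2 was smallest (2.07). FPKM divides the fragments of a gene by transcript length and by the mapped reads of the mouse. These libraries hold reads from the 3′ end of transcripts, whose number does not depend on length. Levels in FPKM are therefore compared here between mice and not between genes. Sums over gene lists, and the share of a gene in a sum, are descriptions into which transcript length enters. Adjusted p-values come from limma over all 13807 genes tested, with 0.05 as the threshold. Of those genes 45.1% were called, 23.5% as higher and 21.7% as lower (3240 and 2990 genes, or 5635 and 1647 with the serum amyloid genes Saa1 to Saa3 removed and the mice rescaled). Groups that did not overlap, with anti-CD40 above control, were found in 22.7% of the genes tested. The median log2 fold change was 2.62 over the 5 subunit genes and 0.0056 over all genes tested. RNA from more cells of a type and more RNA per cell cannot be told apart in bulk tissue.

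Of the membrane subunits, Cybb had an FPKM of 100.3, 63.6, and 70.7 in anti-CD40 mice 2, 5, and 9. In the control mice Cybb ran from 11.1 to 19.3 with a median of 11.7, and mouse 4 was alone at the top with the next at 13.02. The log2 fold change of Cybb was 2.58 (standard error 0.20, limma adjusted p = 5.76e-06), with means of 78.2 ± 19.5 (SD, n = 3) and 13.02 ± 3.17 (SD, n = 6). Cyba, its partner in the heterodimer, had an FPKM of 338, 287.5, and 287.5 in mice 2, 5, and 9 and of 37.7 to 61.5 in the control mice (median 53.6). No control mouse stood apart, with mice 3 and 11 low and mice 4, 7, and 8 high. For Cyba the log2 fold change was 2.60 (standard error 0.18, limma adjusted p = 2.92e-06).

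Among the cytosolic subunits, the organizer gene Ncf1 had an FPKM of 20.3, 18.2, and 16.6 in mice 2, 5, and 9 and of 1.46 to 3.26 in the control mice (median 2.52). The FPKM that a single read adds can be told from the steps between low values, and by these steps Ncf1 rested on 810 to 1132 reads with anti-CD40 and 70 to 148 with PBS. Its log2 fold change was 2.97 (standard error 0.24, limma adjusted p = 6.55e-06). Ncf4, whose product binds phosphatidylinositol 3-phosphate on phagosomes, had an FPKM of 12.7, 8.53, and 10.1 in mice 2, 5, and 9 and of 0.629 to 1.20 in the control mice (median 0.921). It was read least among the 3 subunit genes whose reads could be recovered, with 352, 222, and 244 reads in mice 2, 5, and 9 and 15 to 31 with PBS, where counting error alone is 25.8% at the lowest value. Ncf4 rose by 3.40 on the log2 scale (standard error 0.22, limma adjusted p = 2.06e-06). A pseudocount of 1 in place of 0.1 lowered this value to 2.58, since the control values are close to 1.

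The GTPase gene Rac2, which is expressed in blood cells in general and not in phagocytes alone, had an FPKM of 9.78, 8.21, and 9.42 in mice 2, 5, and 9. In the control mice it ran from 1.05 to 1.70 with a median of 1.45. Rac2 was read 485 to 614 times with anti-CD40 and 57 to 91 times with PBS. It varied least within groups, with a coefficient of variation of 8.98% after anti-CD40 and 16.3% in control mice, and its log2 fold change was 2.62 (standard error 0.16, limma adjusted p = 1.20e-06). Mouse 2 was the highest anti-CD40 mouse in all 5 genes. The lowest control mouse was mouse 3 in 3 genes and mouse 11 in 2, whereas the highest was mouse 4 in 2 genes, mouse 12 in 2, and mouse 8 in 1. Each gene alone gave an exact permutation p of 0.0238 (2-sided, as 2 times the smaller tail). This is the smallest that this way of counting the 84 splits of the 9 mice allows.

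**Figure D1:**
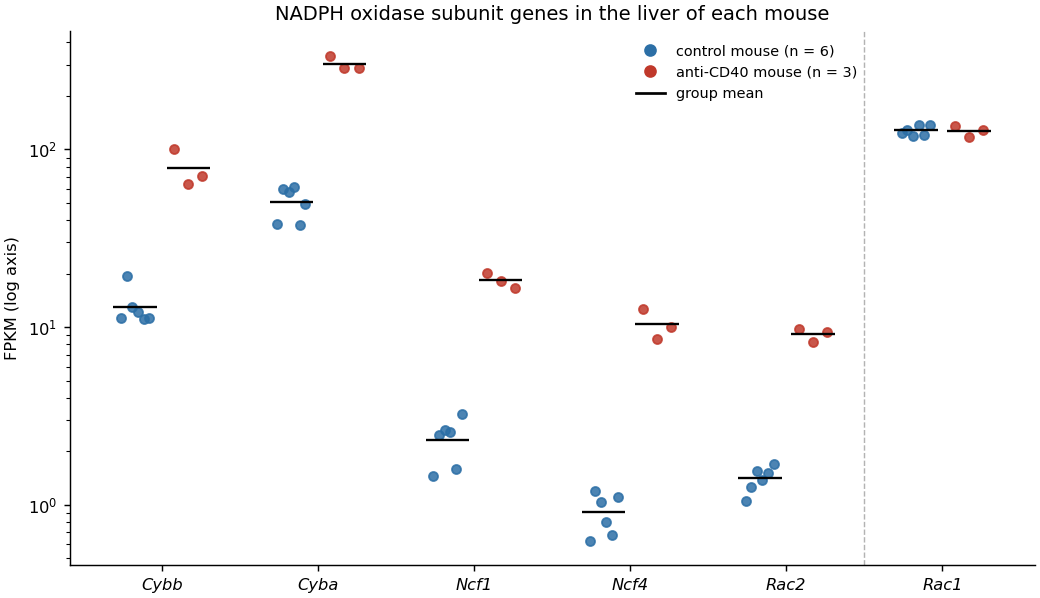
FPKM on a log axis for the 5 subunit genes and, right of the dashed line, Rac1, with a point for each control mouse (blue, n = 6) and anti-CD40 mouse (red, n = 3) and a bar at the group mean. The groups are apart for the 5 subunit genes and overlap for Rac1, at 117 to 135 after anti-CD40 and 119 to 138 in control mice.

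Of 3 further genes of the enzyme, 1 was called higher and 0 lower (23.5% and 21.7% of all genes tested). BC017643, the older symbol of Cybc1, which encodes the chaperone of the gp91phox and p22phox heterodimer, had a log2 fold change of 0.87 (standard error 0.14, limma adjusted p = 6.30e-04). Its position in the table is shared by Hexdc and Ogfod3, so reads could have been assigned across these genes. Rac1, the widely expressed relative of Rac2, had an FPKM of 127 ± 9.09 (SD, n = 3) with anti-CD40 and 128 ± 8.28 (SD, n = 6) with PBS. Its log2 fold change was -0.01 (standard error 0.10, limma adjusted p = 0.930). Under other scalings Rac1 was past the threshold, at 0.40 with quantile normalization and at 0.35 with the serum amyloid genes removed. The median of all genes was -0.087 under the first and 0.35 under the second, so relative to the median Rac1 was higher under the first and near 0 under the second. Rap1a, a GTPase that copurifies with the membrane subunits, had a log2 fold change of 0.09 (limma adjusted p = 0.649), or 0.46 with the serum amyloid genes removed (limma adjusted p = 0.0456).

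Genes that act in switching the oxidase on were higher as well. Of 17 such genes, 15 were called higher and 0 lower (23.5% and 21.7% of all genes tested), and their median log2 fold change was 1.34. Among the receptors, Itgam, the integrin subunit CD11b of the complement receptor on phagocytes, had a log2 fold change of 3.35 (standard error 0.22), with an FPKM of 5.63 ± 0.496 (SD, n = 3) against 0.475 ± 0.147 (SD, n = 6) with PBS. The formyl peptide receptor gene Fpr2 had a log2 fold change of 3.13 (standard error 0.25). Fpr1 had a smaller estimate of 0.88 (standard error 0.26, limma adjusted p = 0.0205), with overlapping groups. Without anti-CD40 mouse 2 or 9 the adjusted p of Fpr1 was 0.106 or 0.0517.

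Protein kinase C phosphorylates p47phox and so releases its inhibition. Prkcd, the isoform delta, rose to 13.5 ± 2.37 (SD, n = 3) against 2.95 ± 0.379 (SD, n = 6) with PBS (log2 fold change 2.16, limma adjusted p = 2.82e-06), and Prkcb, the isoform beta, had a log2 fold change of 1.34. Prkca, the isoform alpha, was at 1.62 ± 0.0477 (SD, n = 3) with anti-CD40 and 1.58 ± 0.157 (SD, n = 6) with PBS (log2 fold change 0.04, limma adjusted p = 0.818). Its sign turned with quantile normalization, to -0.24. Genes of the phosphoinositide 3-kinase gamma complex were higher, with log2 fold changes of 2.57 for the regulatory subunit Pik3r5 and 1.73 for the catalytic subunit Pik3cg. So were 2 activators of Rac GTPases, Vav1 (1.95) and Dock2 (1.84). Hvcn1, the voltage-gated proton channel that balances the charge the oxidase moves, had an FPKM of 1.29 to 1.97 after anti-CD40 and of 0.01, the floor of the table, to 0.551 in control mice. Its log2 fold change of 2.49 had the widest standard error among these genes, 0.48, and was 1.07 with a pseudocount of 1 and 3.20 with 0.01. The p21-activated kinase gene Pak1 had a log2 fold change of 0.40 (limma adjusted p = 0.221).

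The list of other NADPH oxidases held 9 genes, of which 4 could be tested. Of these 2 were called higher and 1 lower (23.5% and 21.7% of all genes tested), or 1 higher and 1 lower without anti-CD40 mouse 2 or 5. Noxa1, with a control mean of 0.0296 FPKM, passed the filter of 0.1 only through the anti-CD40 mice. Without mouse 2 or 5 it fell under the filter and was not tested. Nox4, the oxidase of hepatocytes and stromal cells that needs p22phox but none of the cytosolic subunits, had an FPKM of 0.0636, 0.203, and 0.160 in mice 2, 5, and 9 and of 1.01 to 1.81 in the control mice. This rests on 5 to 15 reads with anti-CD40 against 61 to 121 with PBS, and the log2 fold change was -2.68 (standard error 0.24, limma adjusted p = 1.26e-05). At such low values its size depended on the pseudocount, with -1.08 at a pseudocount of 1 and -3.35 at 0.01. Nox4 fell where Cyba, whose product it shares with gp91phox, rose. Nox1 had an FPKM of 15.3 to 18.6 after anti-CD40 and of 13.5 to 19.5 in control mice (log2 fold change 0.12, limma adjusted p = 0.467). Its organizer Noxo1 and activator Noxa1 had log2 fold changes of 1.81 and 1.66, and Noxa1 was at the floor of 0.01 in 3 control mice. The value of Noxa1 was 0.36 with a pseudocount of 1 and 3.17 with 0.01. Nox3 and Duox1 were listed at the floor in every mouse. Duoxa2, the maturation factor of Duox2, was too low for the test, with 0.130 to 0.208 after anti-CD40 and the floor in all control mice.

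Of 8 genes tested that encode enzymes consuming superoxide or hydrogen peroxide, 1 was called higher and 5 lower, beside 21.7% of all genes called lower. The mitochondrial superoxide dismutase Sod2 rose to 193 ± 14.7 (SD, n = 3) against 112 ± 17.8 (SD, n = 6) with PBS (log2 fold change 0.80, limma adjusted p = 0.00138). The cytosolic Sod1, by contrast, had a log2 fold change of -1.47, with an FPKM of 5130 ± 342 (SD, n = 3) against 14385 ± 2463 (SD, n = 6) with PBS. Catalase (Cat) and glutathione peroxidase 1 (Gpx1) had log2 fold changes of -1.50 and -1.13. Without the filter on low values the adjusted p was 0.0727 for Sod1 and 0.0521 for Gpx1. The gene of extracellular superoxide dismutase, Sod3, did not pass the threshold (log2 fold change -0.45, limma adjusted p = 0.119). Mpo, the myeloperoxidase of neutrophil granules, which uses the hydrogen peroxide the burst gives rise to, was under the mean FPKM of 0.1 needed for the test, at 0.0578 to 0.205 after anti-CD40 and 0.01 to 0.165 in control mice.

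**Figure D2:**
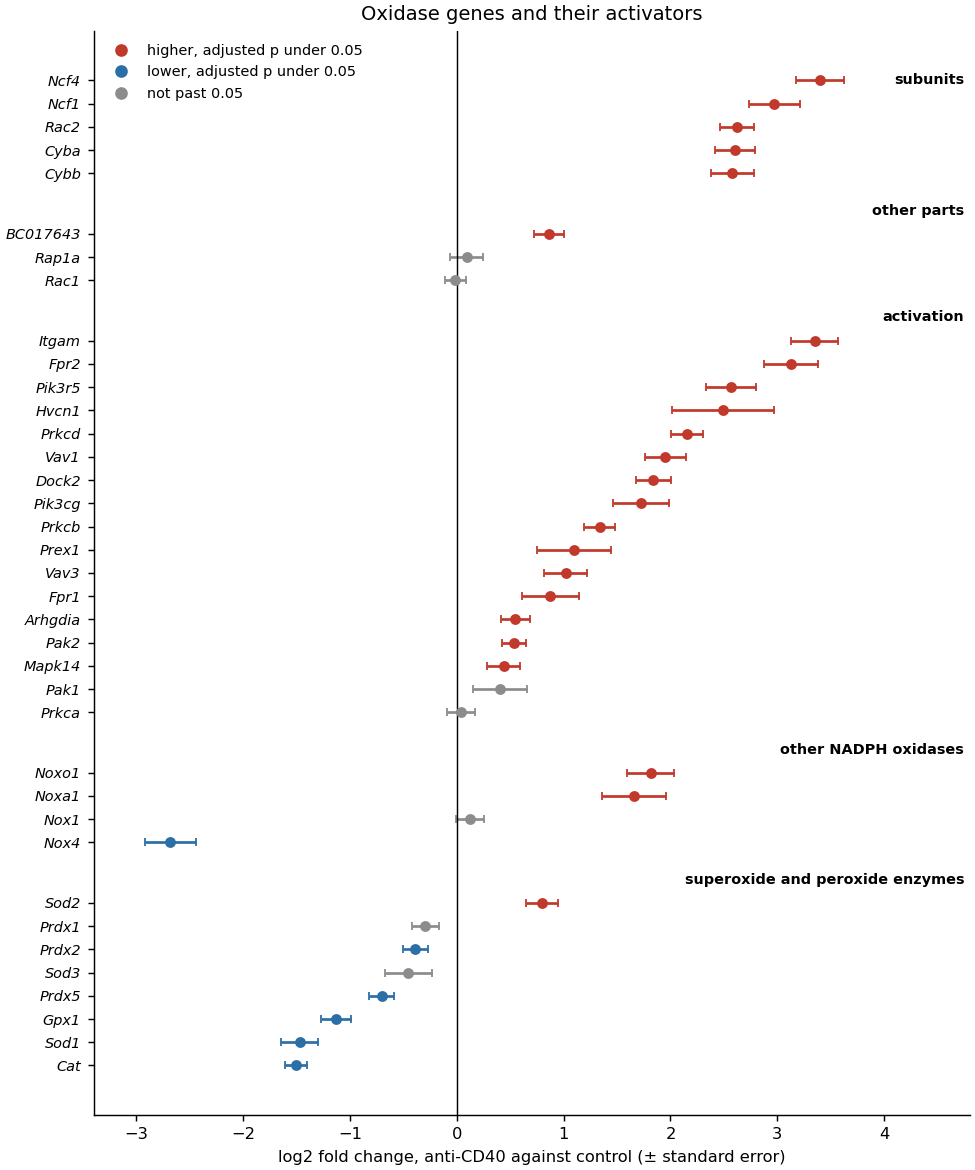
Log2 fold change on the log2(FPKM + 0.1) scale (x axis, points, with bars of 1 standard error) for the genes tested in each of 5 lists, red where called higher, blue where called lower, and gray where the adjusted p was not under 0.05. The subunit genes sit between 2.58 and 3.40, whereas Nox4 is at -2.68 and Cat at -1.50.

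Markers of the cells that use the oxidase moved in both directions. Of the neutrophil genes, 10 of 10 tested were called higher, beside 23.5% of all genes. Cxcr2, Mmp8, Ngp, and Ltf had control means of 0.0556, 0.0323, 0.0902, and 0.0180 FPKM, under the filter of 0.1. They were tested only through their values in anti-CD40 mice, so their calls add no support. The summed FPKM of the neutrophil genes was 4231 to 5221 after anti-CD40 and 19.2 to 157 in control mice. S100a8 and S100a9 made up 98.3% of the anti-CD40 sum, and without them it was 76.0 to 89.6 against 0.802 to 7.26 with PBS. Of the monocyte and macrophage genes, 7 of 10 were higher and 1, Adgre1, was lower, with sums of 298 to 419 and 46.3 to 82.9. All 6 Kupffer cell genes were lower, beside 21.7% of all genes. Their sums were 39.0 to 50.7 after anti-CD40 and 285 to 456 in control mice. B cell genes summed to 25.7 to 36.7 and 1.84 to 7.18, and T cell genes to 7.70 to 9.997 and 2.59 to 4.45. Clec4f, which defines Kupffer cells in mice, had the floor value of 0.01 in mouse 2. The hepatocyte genes, which check the labelled tissue, summed to 18624.5 to 20895 with anti-CD40 and 18368 to 37949 with PBS. Of the 7 genes 5 were lower, beside 21.7% of all genes. Trf, which encodes transferrin, was called higher (log2 fold change 0.70, limma adjusted p = 0.0272) and made up 76.6% of the anti-CD40 sum, and without it the sums were 4211 to 5059 and 12006 to 23424. The neutrophil gene Ly6g and the T cell gene Trac were not found by name among the genes with usable values. The neutrophil gene Cd177 and the B cell gene Pax5 were under the mean FPKM needed for the test. The part of each cell type in the rise of the subunit genes was not tested.

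To see whether the subunit genes rose by more than leukocyte genes in general, each was set against 10 genes of leukocytes of all kinds within the same mouse. All 10 of these reference genes were called higher, beside 23.5% of all genes tested. They lay between Laptm5, a lysosomal protein of blood cells (log2 fold change 1.05), and Cd52, a surface glycoprotein (3.10). Ptprc, which encodes the leukocyte common antigen CD45, had a log2 fold change of 2.60, and the mean of the 10 rose by 2.38. Relative to this mean the difference between the groups was 0.20 on the log2 scale for Cybb, 0.23 for Cyba, and 0.25 for Rac2. Their exact permutation p-values, adjusted over the 5 genes, were 0.238, 0.159, and 0.286, and the groups overlapped. Ncf1 was 0.60 above the reference (adjusted exact permutation p = 0.159), and control mouse 12, at -0.467, lay within the range of the anti-CD40 mice, -0.489 to -0.402. Ncf4 had the largest difference, 1.02, with -1.28 ± 0.255 (SD, n = 3) against -2.30 ± 0.183 (SD, n = 6) with PBS. Its groups did not overlap, and the exact permutation p was 0.0238, or 0.119 after adjustment, which misses 0.05. The adjusted value also depends on the exact permutation p-values of the other subunit genes, which ran from 0.0714 for Ncf1 to 0.286 for Rac2 before adjustment. With a pseudocount of 1 the difference of Ncf4 was only 0.56, no longer the largest, and those of Cyba and Ncf1 were 0.57 and 0.54. These 3 then passed the threshold, each with an adjusted exact permutation p of 0.0397. The log2 fold change of Cyba itself was 2.58 at that pseudocount and 2.60 with 0.1. Its larger difference thus came from a smaller rise of the reference mean and not from a larger rise of Cyba.

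**Figure D3:**
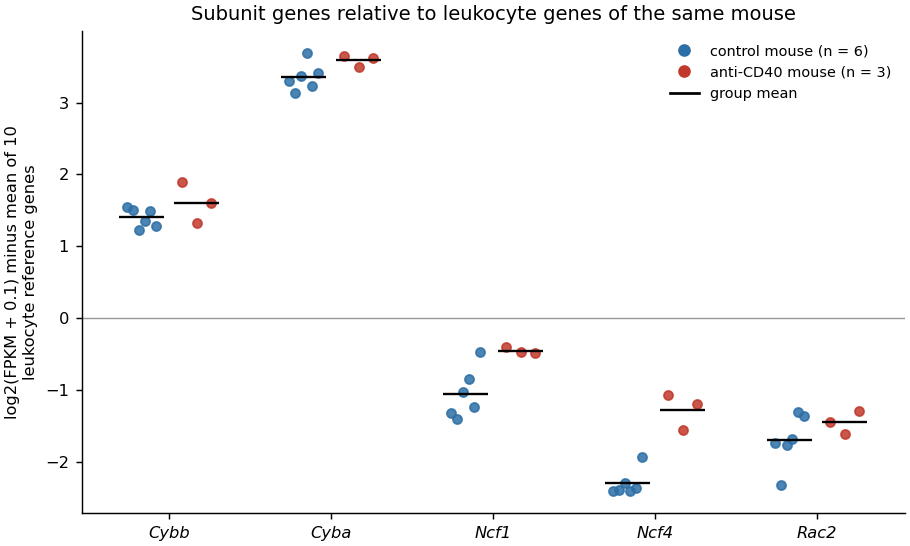
Each subunit gene on the log2(FPKM + 0.1) scale minus the mean of the 10 leukocyte reference genes of the same mouse (y axis), with a point for each control mouse (blue, n = 6) and anti-CD40 mouse (red, n = 3) and a bar at the group mean. The groups are apart for Ncf4 and overlap for the other 4 genes.

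The subunit genes were also compared with each other within each mouse, in 10 pairs. The log2 ratio of Cybb to Cyba, the members of the heterodimer, was -1.98 ± 0.215 (SD, n = 3) with anti-CD40 and -1.96 ± 0.280 (SD, n = 6) with PBS. The difference of -0.03 ran from -0.14 to 0.07 when each mouse was left out in turn. For Cybb to Rac2 and Cyba to Rac2 the differences were -0.04 and -0.02 (adjusted exact permutation p = 0.952 for all 3 pairs). The latter differences turned to 0.42 and 0.51 with a pseudocount of 1 and to 0.29 and 0.46 with quantile normalization, none with an adjusted p past the threshold. These p-values do not show that the ratios were equal. Relative to Cybb, Cyba, and Rac2, the Ncf4 values of all anti-CD40 mice lay above those of all control mice, and these were the 3 pairs whose groups did not overlap. The log2 ratio of Ncf4 to Rac2 was 0.18 ± 0.175 (SD, n = 3) with anti-CD40 and -0.60 ± 0.320 (SD, n = 6) with PBS, which differ by 0.78. In whole reads, 57.3, 45.8, and 47.1 reads of Ncf4 fell on every 100 reads of Rac2 in mice 2, 5, and 9. The control mice had 19.8 to 41.9, and control mouse 4 was the highest of them. The differences for Cybb to Ncf4 and Cyba to Ncf4 were -0.82 and -0.79. Each of the 3 pairs had an exact permutation p of 0.0238, already the smallest this test can give. Over 10 pairs the adjusted p was 0.0794, so none passed 0.05. With p at its minimum, the adjusted value depends on the p-values of the other pairs, and missing 0.05 does not show that these ratios were unchanged. Without a pseudocount, a setting chosen after seeing the data, the 3 differences were 0.84, -0.96, and -0.94. With a pseudocount of 1 the difference was 0.0076 for Cyba to Ncf4, -0.0789 for Cybb to Ncf4, and 0.50 for Ncf4 to Rac2. At that setting the last value was not particular to Ncf4, since Cybb, Cyba, and Ncf1 to Rac2 had 0.42, 0.51, and 0.49. The log2 fold change of Rac2 itself was then 2.07, in place of 2.62 with 0.1. Without a pseudocount, Cybb, Cyba, and Ncf1 to Rac2 had -0.12, -0.10, and 0.32. Counting the splits by absolute difference, also chosen after seeing the data, gave an adjusted p of 0.0397 by the exact permutation test for the 3 pairs.

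**Figure D4:**
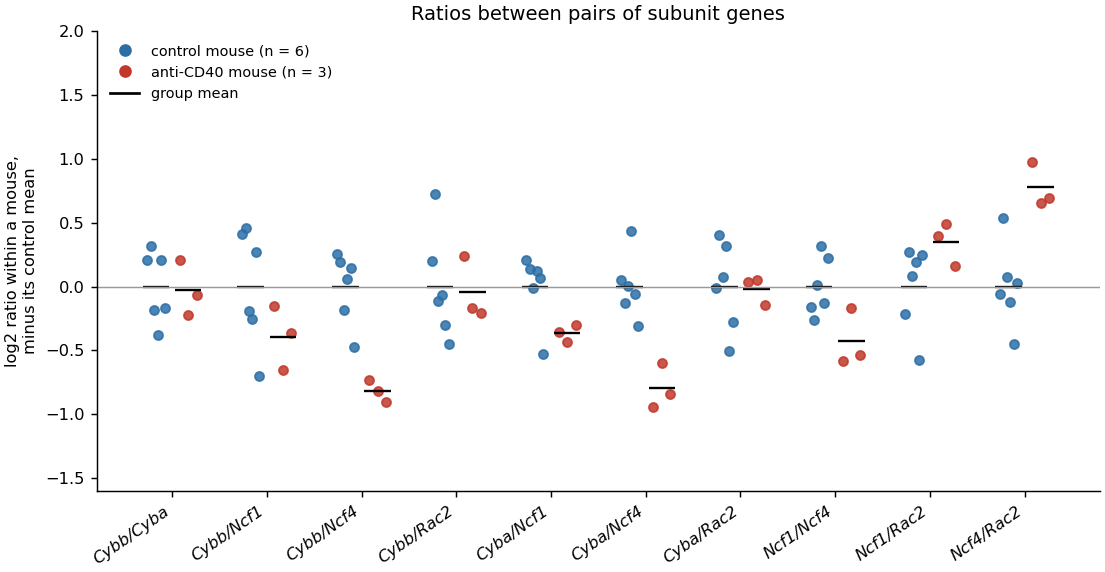
Log2 ratio between 2 subunit genes within a mouse, minus the mean of that ratio in control mice (y axis), for the 10 pairs, with a point for each control mouse (blue, n = 6) and anti-CD40 mouse (red, n = 3) and a bar at the group mean. The 3 pairs with Ncf4 and Cybb, Cyba, or Rac2 have groups that do not overlap.

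The genes whose profile over the 9 mice was most like that of a subunit gene were found by the root mean square difference of log2 values, each gene centered on its own mean. For Cybb these were Ikzf1, which encodes the transcription factor Ikaros (0.125), Plau (0.146), and Pyhin1 (0.148). For Cyba they were Alox5ap, which encodes the activator of 5-lipoxygenase (0.112), Pyhin1 (0.128), and the pyruvate kinase gene Pkm (0.142). Closest to Ncf1 were the kinase gene Map4k1 (0.185), the hemopexin gene Hpx (0.197), and Cenph (0.199). Ncf4 lay nearest to the complement receptor gene C5ar1 (0.168), followed by Elf3 (0.173) and Rmi2 (0.175). The genes nearest to Rac2 were Tmem173, which encodes STING (0.146), the tyrosine kinase gene Syk (0.158), and Tagln2 (0.163). Other subunit genes were farther away, at 0.232 between Cybb and Cyba and at 0.265 to 0.285 from Ncf1, Ncf4, and Rac2 to their nearest subunit gene, so that between 24 and 42 other genes lay closer. This measure takes in the difference between the groups as well as the spread of mice within them.

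Transcription factors listed because such factors are known to act on promoters of some phagocyte oxidase genes were measured too. Spi1, which encodes PU.1, rose to 11.8 ± 0.897 (SD, n = 3) against 3.18 ± 0.897 (SD, n = 6) with PBS (log2 fold change 1.92, limma adjusted p = 1.41e-04). Irf8 rose to 24.0 ± 0.713 (SD, n = 3) against 5.12 ± 1.03 (SD, n = 6) with PBS (log2 fold change 2.23, limma adjusted p = 5.45e-06), and was read 191 to 344 times in the control mice. Irf1 did not pass the threshold (log2 fold change 0.33, limma adjusted p = 0.179), but did with quantile normalization (0.585), with the serum amyloid genes removed (0.69), and with array weights (0.39). The median of all genes was -0.087 under the first of these settings and 0.35 under the second, against 0.0056 in the main fit. Cebpb did not pass the threshold (log2 fold change 0.53, limma adjusted p = 0.270). Of the 5 factors listed, 2 were called higher and 1, Cebpe, lower, with overlapping groups. Over all genes tested 45.1% were called. The mean of the 10 leukocyte reference genes rose by 2.38, against 1.92 for Spi1 and 2.23 for Irf8. Whether any of these factors acts on the subunit genes here was not tested.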

How the data were processed

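Liver RNA of 9 mice was sequenced from the 3′ end (QuantSeq) on an Illumina instrument. Alignment to mm10 was with STAR, and the authors deposited FPKM values estimated by Cufflinks for each gene and mouse, in which 0.01 is the lowest value and failed estimates are marked by a word. The annotation is not given in the sources used here. The 15 genes with a failed estimate were left out. The 13807 genes whose FPKM averaged 0.1 or more were tested as log2(FPKM + 0.1) by limma 3.58.1 in R 4.3.3 (eBayes with trend, 2-sided, Benjamini-Hochberg). Within-mouse ratios were tested by exact permutation (2-sided, as 2 times the smaller tail). The study used CuffDiff on alignments, which was not run here. Because the steps between low FPKM values are whole multiples of what 1 read is worth, the depth of each mouse relative to the geometric mean could be taken from them, between 0.870 and 1.13. Whole reads, within 0.05 of a whole number in every mouse, were recovered for Ncf1, Ncf4, Rac2, Nox4, Spi1, and Irf8 but not for Cybb and Cyba, and are the smallest whole numbers that give the deposited values. No test on counts was run, and total depth is unknown. Start positions in the table count from 0 and are printed from 1. The mice were grouped by the sample titles. Scripts were tested on simulated data. The members and gene lists were chosen with earlier results of these data known, and 2 motifs were shortened by a base and others left out after a first search. Some genes are not reported here. Named were the 5 subunit genes, genes of the fixed lists, and the 3 genes most like each subunit gene. Python 3.11.15 with numpy 2.4.6, pandas 2.3.3, and matplotlib 3.10.9 did the remaining steps.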

Additional observations from a re-analysis of the deposited data

Results flagged for a closer look

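In 71 values examined over the 6 control mice, the highest or lowest mouse stood apart from the others in 8, where chance gives about 3.55. The gap to the nearest mouse is given as a share of the range. Control mouse 4 was highest in Cybb (share 0.769, FPKM 19.3 against the next at 13.02), in Plau (0.747, FPKM 1.11), and in the summed B cell genes (0.639, 7.18 FPKM), and lowest in Gpx1 (0.658, FPKM 7217). Control mouse 3 was lowest in Pik3r5 (0.668, FPKM 0.0629) and in Syk (0.853, FPKM 0.513). Control mouse 12 was lowest in the log2 ratio of Cyba to Ncf1 (0.701, at 3.88) and highest in Ncf4 relative to the leukocyte reference (0.753, at -1.94). The values of control mouse 4 were also the highest among controls for the mean of the leukocyte reference genes, at 2.78 on the log2 scale against 1.95 to 2.49 in the other control mice. No cause was tested.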

How the results depend on the processing

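The 5 subunit genes kept their call and direction under all 19 alternatives each, with log2 fold changes of 2.39 to 2.94 for Cybb, 2.52 to 3.00 for Cyba, 2.56 to 3.33 for Ncf1, 2.58 to 3.75 for Ncf4, and 2.07 to 2.98 for Rac2. With the serum amyloid genes Saa1 to Saa3 removed and the mice rescaled, 5635 genes were called higher and 1647 lower, all 3 of the further genes of the enzyme were called higher, and the mean summed FPKM of the anti-CD40 mice was 5768 for neutrophil, 429 for monocyte and macrophage, 55.0 for Kupffer cell, 37.4 for B cell, 10.8 for T cell, and 23501 for hepatocyte genes. Quantile normalization gave 5426 and 428 for the first 2 of these lists and called 2 of the further genes of the enzyme higher. Under a minimum mean FPKM of 1, 0 other NADPH oxidase genes were called higher and 0 lower by limma, since Nox4, Noxo1, and Noxa1 fall under that mean and only Nox1 was tested. Of these genes 1 to 2 were called higher with each mouse left out. The number was 1 without anti-CD40 mouse 2 or 5, where Noxa1 averaged under 0.1 FPKM and was not tested. The number of superoxide and peroxide enzymes called lower was 3 without a filter and 3 with quantile normalization. The cause of these changes was otherwise not tested.
With a pseudocount of 1 and with quantile normalization the difference turned positive for Cybb to Rac2 (0.42 and 0.29), Cyba to Ncf1 (0.0227 and 0.0278), and Cyba to Rac2 (0.51 and 0.46). For Cyba to Ncf4 it was 0.0076 with a pseudocount of 1. With each mouse left out the differences ran from -0.14 to 0.0697 for Cybb to Cyba, from -0.19 to 0.10 for Cybb to Rac2, and from -0.12 to 0.0649 for Cyba to Rac2. Counting the splits by absolute difference, chosen after seeing the data, gave the 3 pairs with Ncf4 and unchanged differences (-0.82, -0.79, and 0.78) an adjusted exact permutation p of 0.0397. Relative to the leukocyte reference a pseudocount of 1 gave 0.57 for Cyba, 0.54 for Ncf1, and 0.56 for Ncf4. Rac1 turned positive with quantile normalization (0.40), with rescaling (0.35), with array weights (0.0070), and without single mice (-0.0587 to 0.0442). Prkca turned with quantile normalization (-0.24) and ran from -0.0014 to 0.0752 without single mice, and Rap1a from -0.0014 to 0.151.
No paired analysis was possible because no mouse number occurs in both groups.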
